A study of Homo sapiens with 3 samples.

Results

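Of 119461 sgRNAs in the GeCKOv2 library, 2204 target 375 olfactory receptor genes, and they are described here as cutting controls. They were chosen by gene symbol alone, as the symbols that begin with OR, a family number, a subfamily letter and a member number. All cells were Huh-7 cells, an established human hepatoma line, that had been transduced with the sgRNA library at a target MOI of 0.3, selected with puromycin and expanded. One library came from untreated cells, a further one from the survivors of repeated 24 h exposures to 0.1 µM RSL-3, and a last one from the survivors of 0.03 µM RSL-3 together with 50 mM linoleic acid (LA). The labels do not say at which time or passage the untreated cells were harvested. The legends and the methods of the study give different numbers of selection rounds. RSL-3 blocks GPX4, the enzyme that removes lipid peroxides from membranes, and LA supplies polyunsaturated chains that peroxidise. With 1 library per condition there is no replicate check, and no difference between conditions or between groups of sgRNAs was tested.

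Olfactory receptors are seven-pass membrane proteins by which sensory neurons of the nose recognise odorants. Each neuron expresses a single receptor gene, and other tissues mostly keep these genes silent. An sgRNA against a silent gene is meant to cause DNA breaks without taking a function from the cell. How well these sgRNAs cut was not measured, and whether any of the receptors acts in liver cells was not tested. Non-targeting sgRNAs, the usual controls, cause no intended cut at all. The files hold no expression data, so that the receptors were silent in these cells is background and was not measured. Many receptor genes are close copies of each other, and how many places each sgRNA cuts could not be read from the counts. Of the 375 genes, 359 had 6 sgRNAs each and 16 had fewer. The latter included OR4F3, OR4F5, OR4F16, OR4F17, OR4F21, OR4F29, OR8U1 and OR8U8, which belong to groups of near-identical genes.

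Total counts per library lay between 1466896 and 1485991. A count of 0 therefore allowed up to 0.000205% of the untreated library, and almost the same in the survivors. Counts were scaled to 1000000 per library (CPM). The 95% intervals are exact (Clopper-Pearson) and, as reads copied by PCR are no independent molecules, they reflect only the error of counting. Intervals on shares of sgRNAs treat these as independent, although sgRNAs of a gene and of its close copies share their target.

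In untreated cells 394 of the 2204 olfactory receptor sgRNAs had at least 1 count, or 17.9% (95% interval 16.3 to 19.5). Among all sgRNAs of the library this share was 16.0%, and among sgRNAs of other genes it was 15.9% (15.7 to 16.1). Of the 1000 non-targeting sgRNAs 29% (26.2 to 31.9) were detected. The olfactory receptor sgRNAs thus stood slightly above those of other genes and far below the non-targeting ones. How much of each sgRNA entered the cells was not measured. Whether non-targeting sgRNAs had the same dose as the others was not tested, here or in the comparisons below. Ribosomal protein genes, picked by symbol and mostly needed by dividing cells, were at 10.4% (7.88 to 13.4), the lowest of the groups named here. When detected, an olfactory receptor sgRNA had a median of 55.5 counts, against 62 for other genes and 52 for non-targeting sgRNAs. Together they held 2.09% of the untreated counts, while they made up 1.84% of the library.

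Coverage of single receptor genes was thin. No sgRNA of 125 genes was seen in untreated cells, 143 genes were represented by 1 sgRNA, 76 by 2, 25 by 3 and 6 by 4, and no gene by 5 or 6. The most abundant olfactory receptor sgRNA of untreated cells, HGLibA_34286 of OR5F1, had 447 counts (305 CPM) and stood at place 15 of all sgRNAs. HGLibA_34455 of OR6Y1 followed with 442 counts and HGLibB_34107 of OR52B6 with 402. Next were HGLibB_33780 of OR2L3 with 313 counts and HGLibA_33723 of OR2A12 with 306. These 5 sgRNAs had 0 counts in both survivor libraries. The 5 that followed them, of OR51T1, OR5C1, OR2T2, OR51B4 and OR1N2, had 272 to 298 untreated counts and were likewise at 0 in both survivor libraries. At 100 CPM or more stood 70 olfactory receptor sgRNAs in untreated cells, or 3.18%, against 2.64% of all sgRNAs. Of these 70, 3 were detected after RSL-3 and 3 after RSL-3/LA. Of all sgRNAs with 100 or more untreated counts, a lower limit than 100 CPM, 4.08% and 6.23% were. Loss from both survivor libraries was common, at 90.8% of all sgRNAs with an untreated count.

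After RSL-3, 66 olfactory receptor sgRNAs (2.99%, 2.32 to 3.79) of 63 genes had a count, against 2.46% of all sgRNAs. After RSL-3/LA, 107 (4.85%, 3.995 to 5.84) of 98 genes did, against 4.16% of all. Non-targeting sgRNAs were detected in 5.6% (4.26 to 7.21) and 8.2% (6.57 to 10.1) of cases. Non-targeting sgRNAs were again the most often detected, whereas the intervals of the olfactory receptor sgRNAs held the share of all sgRNAs. A part of these detections rested on very few reads, with 1 or 2 counts for 17 of the 66 (25.8%) and 11 of the 107 (10.3%). For other genes these shares were 20.7% and 9.42%, and for non-targeting sgRNAs 19.6% and 14.6%. Over all libraries 496 olfactory receptor sgRNAs were seen at least once and 1708 never, of which the latter give no information on survival.

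The survival rate was taken as the share of sgRNAs with an untreated count that still had a count after selection. Of the 394 olfactory receptor sgRNAs 29 persisted in RSL-3 survivors, or 7.36% (4.98 to 10.4), against 3.93% of all sgRNAs. The rate was 3.77% (3.49 to 4.06) for other genes and 7.59% (4.82 to 11.3) for non-targeting sgRNAs. In RSL-3/LA survivors 31 persisted, or 7.87% (5.41 to 11.0), against 6.27% of all sgRNAs, 6.12% (5.77 to 6.49) for other genes and 12.4% (8.85 to 16.8) for non-targeting sgRNAs. Most olfactory receptor sgRNAs of untreated cells, 342 of 394, were lost from both survivor libraries, or 86.8% (83.1 to 89.98), against 90.8% of all sgRNAs with an untreated count. After RSL-3 the interval of the olfactory receptor sgRNAs lay above that of other genes and around the non-targeting value, and after RSL-3/LA it included the rate of other genes. With at least 10 counts required before and after, 14 of 307 persisted after RSL-3, or 4.56% (2.52 to 7.53), against 2.52% (2.27 to 2.80) for other genes and 4.89% (2.47 to 8.58) for non-targeting sgRNAs. Under that requirement the intervals of olfactory receptors and other genes overlapped.

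Survival was then set against the frequency before selection. In RSL-3 survivors 5 of 44 olfactory receptor sgRNAs with 1 or 2 untreated counts persisted (11.4%, 3.79 to 24.6), and 9 of 133 with 100 or more (6.77%, 3.14 to 12.5). In RSL-3/LA survivors 3 of 44 persisted in the lowest group (6.82%, 1.43 to 18.7) and 10 of 133 in the highest (7.52%, 3.66 to 13.4). The intervals of these groups overlapped widely. Among all sgRNAs the lowest and highest groups persisted at 4.24% and 4.08% after RSL-3, and at 6.27% and 6.23% after RSL-3/LA. Even of the 1810 olfactory receptor sgRNAs without an untreated count, 37 (2.04%) appeared after RSL-3 and 76 (4.20%) after RSL-3/LA. For other genes without an untreated count these shares were 2.17% and 3.74%. At 100 CPM or more stood 8 of the 37 (21.6%) and 25 of the 76 (32.9%), close to the 18.7% and 32.9% of all sgRNAs that were detected without an untreated count.

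An sgRNA counted as enriched when it reached 100 CPM in survivors and exceeded, by a factor of 10 or more, the larger of its untreated CPM and the CPM of 3 untreated counts. In RSL-3 survivors 14 olfactory receptor sgRNAs were enriched (0.635%, 0.348 to 1.06), beside 0.419% of all sgRNAs. In RSL-3/LA survivors 31 were (1.41%, 0.958 to 1.99), beside 1.20% of all sgRNAs. Among non-targeting sgRNAs the shares were 1.1% (0.550 to 1.96) and 2.9% (1.95 to 4.14). Each interval of the olfactory receptor sgRNAs included the share of all sgRNAs. At this number of sgRNAs a difference from the library at large was not detectable. No olfactory receptor gene had more than 1 enriched sgRNA in a survivor library, whereas DHCR7, the sterol reductase that the study followed up, had 2 after RSL-3 and 3 after RSL-3/LA. In the whole library 6 of 21815 targets (0.0275%) had 2 or more after RSL-3 and 48 (0.220%) after RSL-3/LA. The exact interval of 0 of 375 olfactory receptor genes reaches 0.979% and holds both shares.

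A clone means here all cells with the same sgRNA, and whether they descend from a single transduced cell was not measured. The largest olfactory receptor clone of RSL-3 survivors carried HGLibB_33641 of OR1L1, with 201 counts before selection, 2359 after RSL-3 and 0 after RSL-3/LA. It stood at 1607 CPM, at place 48 of all sgRNAs, with a ratio of CPM to untreated cells of 11.7 (95% interval 10.2 to 13.6). HGLibA_34558 of OR8U8 had 9, 1671 and 0 counts in the same order, a ratio of 186 (97.5 to 407). OR8U8 has the near-identical copy OR8U1, so the cut gene is uncertain. HGLibB_34326 of OR6A2 had 3, 1291 and 2 counts, a ratio of 430 (147 to 2088). HGLibB_33754 of OR2G6 had 1, 1160 and 0 counts, a ratio of 1159 (208 to 45831), for which the width of the interval reflects the lone untreated count. HGLibA_34362 of OR5T3 had 0, 971 and 2 counts, at least 323-fold if 3 counts are taken as the untreated limit. The most abundant clone had the smallest of these ratios, and the largest ones stood on 0 to 3 untreated counts.

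The next olfactory receptor sgRNAs of RSL-3 survivors were smaller by degrees. HGLibA_33488 of OR10G2 had 647 counts against 18, a ratio of 35.9 (22.5 to 61.0). HGLibA_34459 of OR7A17 had 437 counts and HGLibA_34147 of OR52B4 332, each against 0. HGLibA_33718 of OR2A1, which has the near-identical copy OR2A42, rose from 125 to 324 counts, a ratio of 2.59 (2.10 to 3.21), and was not enriched. HGLibA_33828 of OR2L5 had 294 counts against 0. In all, 16 olfactory receptor sgRNAs (0.726%) reached 100 CPM, beside 0.484% of all sgRNAs, and 8 of them (50%) had no untreated count, against 70.6% of all sgRNAs at that level. The 5 most abundant held 61.3% of the 12165 olfactory receptor counts and the 10 most abundant 78.0%. A handful of clones therefore made up most of the group's counts. In the whole library, with far more sgRNAs, the 10 most abundant held 64.7% of the counts.

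In RSL-3/LA survivors the largest olfactory receptor clone carried HGLibB_34013 of OR4Q3, with 19 counts before selection, 1 after RSL-3 and 1860 after RSL-3/LA. It stood at 1252 CPM, at place 112 of all sgRNAs, with a ratio of 96.6 (61.7 to 161). HGLibB_34333 of OR6B3 had 1507 counts, at least 496-fold over that limit, and HGLibA_33558 of OR10X1 1499, at least 493-fold, each with 1 count in RSL-3 survivors. HGLibA_33853 of OR2T10 had 1050 counts and HGLibA_33662 of OR1E2 998, each against 0 in the other libraries. HGLibB_33877 of OR4A15 had 144 counts before selection, 1 after RSL-3 and 948 after RSL-3/LA, a ratio of 6.50 (5.45 to 7.80), and so was abundant without being enriched. It was followed by HGLibA_34154 of OR52D1 with 897 counts, HGLibA_34159 of OR52E4 with 828 and HGLibB_33816 of OR2T12 with 740, each against 0. HGLibA_34354 of OR5T1 had 669 counts against 59, a ratio of 11.2 (8.57 to 14.9). The clones were more even in size here than after RSL-3 alone.

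Of the olfactory receptor sgRNAs 38 (1.72%) reached 100 CPM in RSL-3/LA survivors, beside 1.38% of all sgRNAs, and 25 of them (65.8%) had no untreated count, against 75.5% of all sgRNAs at that level. The 5 most abundant held 30.6% of the 22569 olfactory receptor counts and the 10 most abundant 48.7%. In the whole library the 10 most abundant held 18.1%, also less than the 64.7% after RSL-3. The most abundant non-targeting sgRNA went the other way, with 25.6% of that group's counts after RSL-3 and 34.6% after RSL-3/LA. In OR2B11 alone did 2 sgRNAs reach 100 CPM. HGLibB_33719 had 259 counts against 0 and was enriched, and HGLibB_33720 had 183 against 128, a ratio of 1.41 (1.12 to 1.78), and was not. HGLibA_33504 of OR10G9 also reached 100 CPM, with 185 counts, although it had 245 in untreated cells, a ratio of 0.745 (0.612 to 0.906). A level of 100 CPM alone thus included a clone whose share of the counts was lower than before selection. Cell numbers were not measured.

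No olfactory receptor sgRNA was abundant in both survivor libraries. Of the 16 at 100 CPM after RSL-3, 11 had 0 counts after RSL-3/LA and the others had 1 or 2. Of the 38 at 100 CPM after RSL-3/LA, 27 had 0 counts after RSL-3 and the others had 1. Altogether 19 olfactory receptor sgRNAs had a count in both survivor libraries, and in all 19 the lower of the 2 counts was 1 or 2. Whether such low counts were cells or misassigned reads was not tested. The matching overlaps over all sgRNAs were not computed, so these counts are not read as a trait of olfactory receptor sgRNAs. In the whole library 578 sgRNAs reached 100 CPM after RSL-3 and 1643 after RSL-3/LA. Of the 119461 sgRNAs 27 reached 100 CPM in both, 2 of them of DHCR7 and none of them non-targeting. The exact interval of 0 of 2204 olfactory receptor sgRNAs reaches 0.167% and holds that share. Through different sgRNAs, OR13F1 was abundant in both survivor libraries, with 229 counts of HGLibA_33618 after RSL-3 and 179 of HGLibB_33571 after RSL-3/LA. Each had 0 counts in untreated cells. Both screens were compared with the same untreated library.

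The next values give the levels that sgRNAs of these receptor genes reached. In RSL-3 survivors 40 olfactory receptor sgRNAs (1.81%) stood at 10 CPM or more, 6 (0.272%) at 300, 2 (0.0907%) at 1000 and 0 at 2000. Of all sgRNAs 1.51%, 0.198% and 0.0695% reached 10, 300 and 1000 CPM in that library. In RSL-3/LA survivors the numbers were 78 (3.54%), 15 (0.681%), 3 (0.136%) and 0, beside 3.13%, 0.551% and 0.125% of all sgRNAs at the first 3 levels. Taken as 3 counts of the total, a count of 0 among 2204 sgRNAs allows a share of up to 0.136%, and the exact interval reaches 0.167%. Among other genes 0.0329% of sgRNAs exceeded 2000 CPM after RSL-3 and 0.0448% after RSL-3/LA, both below these limits, so a difference was not detectable at this number of sgRNAs. The 0 after RSL-3 also depended on the scaling, since without DHCR7 in the totals the largest olfactory receptor clone stood at 2446 CPM.

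Above the largest olfactory receptor clone stood 47 sgRNAs of 46 targets in RSL-3 survivors, which held 76.7% of the counts, and 111 sgRNAs of 109 targets in RSL-3/LA survivors, which held 43.9%. In both libraries DHCR7 was the only target among them with more than 1 sgRNA. Its most abundant sgRNA, HGLibA_13093, had 286897 counts after RSL-3 and 76533 after RSL-3/LA, or 122 and 41.1 times the largest olfactory receptor count. The olfactory receptor maximum was exceeded by 2 non-targeting sgRNAs after RSL-3 and by 5 after RSL-3/LA. The most abundant non-targeting sgRNA of RSL-3 survivors, HGLibB_57692, had 3794 counts against 1 in untreated cells. That of RSL-3/LA survivors, HGLibB_57614, had 12984 counts against 306.

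As a pool, the olfactory receptor sgRNAs fell from 2.09% of the counts before selection to 0.829% (0.814 to 0.844) after RSL-3 and 1.52% (1.499 to 1.54) after RSL-3/LA. With DHCR7 left out of the totals the shares were 1.26% and 1.61%. The non-targeting pool went from 1.45% to 1.01% and 2.53%, and without DHCR7 in the totals to 1.53% and 2.69%, so that its direction after RSL-3 turned with the scaling. After RSL-3/LA its ratio to untreated cells was 1.74, and 1.16 without its most abundant sgRNA. Without its most abundant sgRNA the olfactory receptor pool of RSL-3 survivors held 0.668%. Pool shares of this kind rest on few clones and depend on the room that the dominant sgRNAs take in a library.

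Within the family, class I receptors (families 51 to 56), whose relatives in fish detect water-soluble odorants, were compared with class II receptors (families 1 to 14). In untreated cells 58 of 312 class I sgRNAs (18.6%, 14.4 to 23.4) and 336 of 1892 class II sgRNAs (17.8%, 16.1 to 19.6) were detected. Of the 58, 1 persisted after RSL-3 and 1 after RSL-3/LA (1.72%, 0.0436 to 9.24, in both). Of the 336, 28 (8.33%, 5.61 to 11.8) and 30 (8.93%, 6.11 to 12.5) persisted. Enriched were 1 and 7 class I sgRNAs (0.321% and 2.24%) and 13 and 24 class II sgRNAs (0.687% and 1.27%). The intervals of the classes overlapped in each of these measures.

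Enriched sgRNAs came from many families. Families 9, 11, 14 and 56, with only 48, 45, 24 and 36 sgRNAs, had 0 in either survivor library. The exact intervals of these 0 values reach 7.40% to 14.2% and hold the 0.419% and 1.20% of all sgRNAs. Family 2, the one with most sgRNAs, had 3 enriched of 378 after RSL-3 (0.794%) and 6 after RSL-3/LA (1.59%). Family 52 had 1 and 5 of 144 (0.694% and 3.47%, the latter with an interval of 1.14 to 7.92). Of all sgRNAs 0.419% and 1.20% were enriched, and the interval of family 52 after RSL-3/LA held the latter share. In the GRCh38.p14 gene table of RefSeq, 373 of the 375 symbols were current and 2 matched through an older name. Receptor genes stood there in 81 runs not broken by another protein-coding gene. The 52 genes with an sgRNA at 100 CPM in a survivor library lay in 29 of these runs. The longest run, of 31 genes with 30 in the library, held 7 of them, beside 52 of all 375 genes. OR5T1, OR5T2 and OR5T3 neighbour each other and each had such an sgRNA, OR5T3 after RSL-3, and OR5T1 and OR5T2 after RSL-3/LA. OR8H1, next to OR5T1, had one as well. Other neighbours among the 52 genes included OR1E1, OR3A3 and OR1E2. How many neighbours would be found with 52 of 375 genes placed at random was not computed, and no effect of position was tested.

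The library consists of HGLibA and HGLibB, each with its own sgRNAs for most genes. In untreated cells 17.7% (15.5 to 20.0) of the olfactory receptor sgRNAs of HGLibA and 18.1% (15.9 to 20.5) of those of HGLibB were detected. For other genes the shares were 17.2% (16.9 to 17.5) and 14.6% (14.3 to 14.9). The olfactory receptor sgRNAs therefore stood above those of other genes in HGLibB, whereas in HGLibA both were alike within the interval. After RSL-3, 10 olfactory receptor sgRNAs of HGLibA and 4 of HGLibB were enriched (0.906%, 0.435 to 1.66, and 0.364%, 0.0992 to 0.928), beside 0.449% and 0.385% of all sgRNAs of each. After RSL-3/LA 11 and 20 were (0.996%, 0.498 to 1.78, and 1.82%, 1.11 to 2.79), beside 1.24% and 1.15%. Between HGLibA and HGLibB the intervals of the olfactory receptor sgRNAs overlapped in both survivor libraries.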

How the data were processed

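Genomic DNA of 3 Huh-7 cultures was used by the authors to amplify sgRNA cassettes by PCR, which were sequenced on a MiSeq and counted with MAGeCK, a tool that the submitters' processing notes name as well. Settings for matching reads are not given in the sources used here. The deposited values are raw counts per sgRNA in 2 tables, which share the untreated library with identical values. MAGeCK's deposited tables per target hold scores, p-values, false discovery rates and ranks, and were not used. No sgRNA sequence or position was used.

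Groups follow the treatment in the sample labels. The untreated column is headed Huh7NC, and was taken as untreated because the other columns name the treatments. All untreated values rest on this. CPM, shares with exact (Clopper-Pearson) 95% intervals, and ratios with exact binomial intervals were computed over all 119461 sgRNAs. Where untreated counts were 0, folds were bounded from below with 3 counts in their place. With 1 library per condition no test was made and no count model was fitted. Functions were tested on simulated data. The members, lists and thresholds were chosen with earlier results of these data known. Named are the 10 most abundant olfactory receptor sgRNAs per library, those of genes with several enriched sgRNAs or enriched in both survivor libraries, the 5 most abundant lost ones, DHCR7, and up to 3 members of each other list with an enriched sgRNA. OR2B11, OR10G9, OR13F1, OR1J2, OR5T2, OR8H1, OR1E1, OR3A3, the non-targeting sgRNAs and the genes with few sgRNAs were named after their values were seen. Python 3.11.15, numpy 2.4.6, pandas 2.3.3 and scipy 1.17.1 were used.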

Additional observations from a re-analysis of the deposited data

How the results depend on the processing

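Of 74 values recomputed under alternatives, 49 stayed within their interval or within 1.5 times the count, and 25 moved. Detection at 2 or more counts gave 2.27% in RSL-3 survivors, and at 10 or more 13.9% before selection, 1.91% after RSL-3 and 3.81% after RSL-3/LA. At 10 untreated and 10 survivor counts, a setting added after the data were seen, 4.56% persisted in RSL-3 survivors. Enriched olfactory receptor sgRNAs in RSL-3 and RSL-3/LA survivors numbered 23 and 57 at 10 CPM, 2 and 3 at 1000 CPM, and 6 and 17 at 100-fold. At 10 CPM the RSL-3/LA survivors had 1 gene with several, OR1J2, with 475 and 47 counts against 0. Before selection, after RSL-3 and after RSL-3/LA, 281, 40 and 78 sgRNAs reached 10 CPM, and 0, 2 and 3 reached 1000 CPM. Without DHCR7 in the totals, the pool held 1.26% and 1.61% of survivor counts and the largest clones 2446 and 1331 CPM. Without the most abundant member the pools held 2.06%, 0.668% and 1.39%. Leaving out 3 genes that RefSeq lists as pseudogenes (OR10J3, OR4C45 and OR8G2), added after the data were seen, moved nothing. Leaving out pseudogenes by symbol was not run, as no symbol of the 375 has such an ending. No paired analysis was possible because only 1 library per condition was analysed, so no library could be left out either. The few sgRNAs seen in untreated cells limit each survival rate.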

Other observations

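Receptors of other chemical senses, the taste receptors, vomeronasal receptors and trace amine receptors, had 222 sgRNAs of 37 genes. In untreated cells 51 were detected (23.0%, exact 95% interval 17.6 to 29.1), against 17.9% of olfactory receptor sgRNAs. In RSL-3 survivors 4 were detected and 0 of 222 enriched, and in RSL-3/LA survivors 14 were detected and 4 enriched (1.80%, 0.493 to 4.55). The latter included VN1R1 (797 counts), TAS2R40 (335 counts) and VN1R5 (329 counts), each with 0 counts for that sgRNA in the other libraries. Genes by which an odorant receptor passes its signal on, or that sensory neurons need for it, had 90 sgRNAs of 15 genes. Of these 23 were detected in untreated cells, and 1 sgRNA was enriched, in RSL-3/LA survivors. It was HGLibA_14349 of EBF1, a transcription factor that is also used outside the nose, with 2967 counts there and 0 in the other libraries, at least 976-fold if 3 untreated counts are taken as the limit. This count exceeded that of the largest olfactory receptor clone in the same library, 1860. With so few sgRNAs these lists give wide intervals, and no difference from the olfactory receptors was tested.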
